A study of Brassica napus with 15 samples.

Results

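Chloroplast-like RNA in germinating rapeseed was followed through 2 of the 101040 coding rows of the expression table, BnaA01g34300D and BnaC07g05360D. They were chosen by name, as the rows that the study matched to the Arabidopsis chloroplast loci ATCG00490 (rbcL) and ATCG00720 (petB), and because their RNA levels had been seen to change with time. Their levels over time are therefore given as a description, with no test. Both rows lie on scaffolds of the nuclear genome assembly, and RNA of the chloroplast genome cannot be told apart here from RNA of a nuclear copy of the same gene.

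Seeds of the Brassica napus accessions C129, C033 and C032 germinated in the dark at 20 °C, and RNA was taken from dry seeds (0 hours after imbibition, hai) and at 2, 12, 36 and 72 hai. C129 germinated fastest and C032 slowest. Each of the 15 libraries was prepared from total RNA pooled from 3 biological replicates of 30 seeds. Every combination of accession and time thus has a single library and carries no error of its own. The study's methods name a TruSeq kit and do not state whether RNA was selected before sequencing. The part of such a selection in the levels below was not tested. Values are in TPM, a relative abundance that is corrected for gene length and for the total of the library. The pools are whole seeds or seedlings, in which fewer cells of a type and less RNA per cell cannot be told apart.

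In plants rbcL encodes the large subunit of Rubisco, the enzyme that fixes CO2 in the stroma, and the small subunit is made from nuclear RBCS genes. petB encodes cytochrome b6, a core subunit of the cytochrome b6f complex, which passes electrons between the photosystems. Both are genes of the chloroplast genome, where rbcL has no intron, petB has one after a very short first exon, and petB is transcribed together with psbB, psbT, psbH and petD. Chloroplast DNA has been copied repeatedly into plant nuclear genomes, and such copies often carry several neighbouring chloroplast genes.

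The rbcL row (GSBRNA2T00015407001) lies on the plus strand of scaffold LK032116 of the assembly AST_PRJEB5043_v1, at 501743 to 503337, and its name assigns it to chromosome A01. Its annotation has 3 exons with 1424 exonic bases in a span of 1595, so that 171 bases are annotated as introns. The petB row (GSBRNA2T00144857001) lies on the plus strand of LK031792, at 1951523 to 1952462, and its name assigns it to chromosome C07. It has 2 exons with 297 exonic bases in a span of 940. No UTR is separated from the coding exons in the table.

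RNA of the rbcL row was listed at 0 in 8 of the 9 libraries up to 12 hai and was above 0 in all 6 libraries at 36 and 72 hai. In C129 it was listed at 0 at 0, 2 and 12 hai, at 33.01 TPM at 36 hai and at 221 TPM at 72 hai. In C033 it was listed at 0 at the first 3 time points, at 121 TPM at 36 hai and at 689 TPM at 72 hai. In C032 it was listed at 0 in dry seeds, 33.4 TPM at 2 hai, 0 again at 12 hai, 91.1 TPM at 36 hai and 307 TPM at 72 hai. The level was higher at 72 than at 36 hai in each accession, and the single early value came from C032 at 2 hai.

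That early value is of the size of C129 at 36 hai. The coverage of the rbcL row in C032 at 2 hai was 81.3 reads per base, or 1158 read equivalents of 100 bases. Read equivalents are estimates from coverage, and the part of reads shared with near-identical rows in them was not tested. At 36 hai the row held 1403, 3625 and 3115 read equivalents in C129, C033 and C032, and at 72 hai 9750, 25947 and 11959. Among all coding genes it ranked 59th from the top in C033 at 72 hai, and 327th and 232nd in C129 and C032.

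RNA of the petB row was listed at 0 in 11 of 15 libraries, including all 3 at 36 hai. In C129 it was above 0 only at 72 hai, with 49.1 TPM, and in C033 only at 72 hai, with 125 TPM. In C032 it was at 24.5 TPM in dry seeds, at 0 from 2 to 36 hai, and at 80.9 TPM at 72 hai. The early libraries in which the rows were seen differ, since petB was above 0 in dry C032 seeds and rbcL in C032 seeds at 2 hai, and neither row was above 0 in an early library of C129 or C033.

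The petB row is short, and its read equivalents were lower, at 144 in dry C032 seeds and 451, 982 and 658 in C129, C033 and C032 at 72 hai. Both rows were ordered C033, C032, C129 from high to low at 72 hai. Where both were above 0, rbcL was the higher, by 4.51 times in C129, 5.51 times in C033 and 3.79 times in C032 at 72 hai in TPM.

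**Figure D1:**
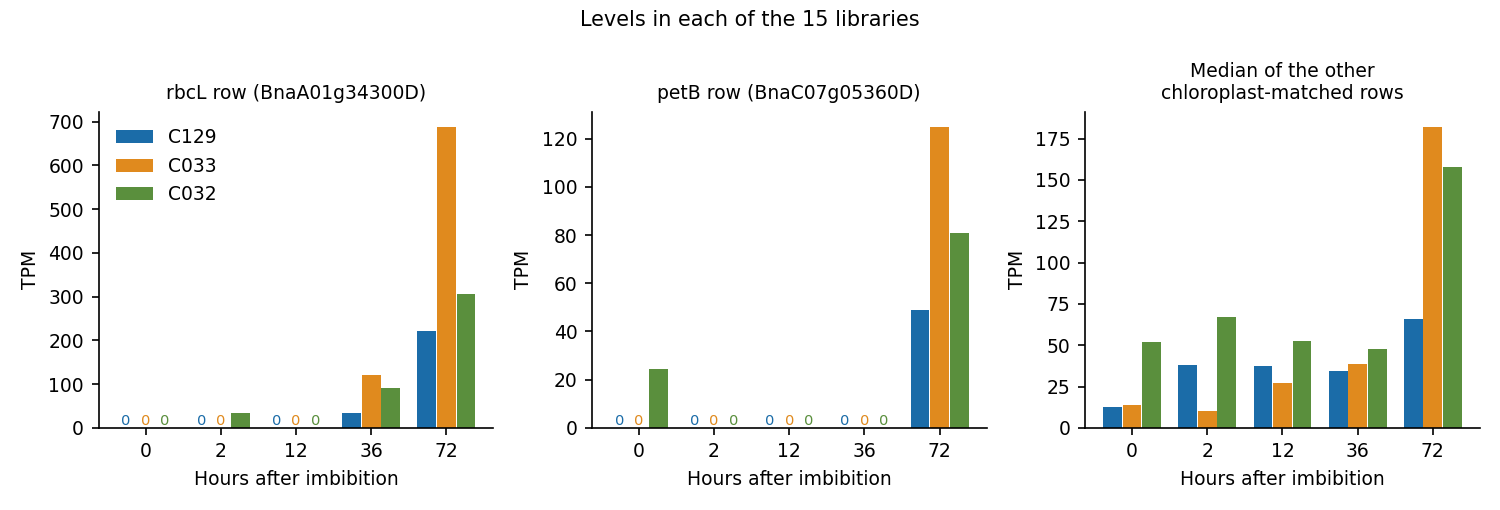
Bars give TPM (linear axes that start at 0 and differ between panels) against hours after imbibition for C129, C033 and C032, 1 library per bar, for the rbcL row, the petB row and the median of 114 other rows matched to chloroplast genes. Zeros are printed. The rbcL row is above 0 in 7 libraries and the petB row in 4, while the median of the other rows is above 0 in all 15.

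Most other rows matched to chloroplast genes were above 0 in dry and imbibed seeds, and 1 to 4 of them were listed at 0 in each library up to 12 hai. The part of the study's gene table at hand matches 114 further rows, on 33 scaffolds, to 40 Arabidopsis chloroplast loci. It lists genes that the study called changed in C129, so these rows are preselected, and rows of 1 locus are near-identical copies between which reads may be shared or split. Their median level ran from 10.3 TPM (C033 at 2 hai) to 66.8 TPM (C032 at 2 hai) in the 9 libraries up to 12 hai, from 34.5 to 47.5 TPM at 36 hai, and at 72 hai it stood at 65.8, 182 and 158 TPM in C129, C033 and C032. The library of C032 at 2 hai, the only early one with the rbcL row above 0, also had the highest summed TPM of these rows among the 9 early libraries (11096). Dry C032 seeds, the only early library with the petB row, ranked 3rd of the 9 (9889), just below C129 at 2 hai (9989), in which both rows were listed at 0. The part of this level in the members' early values was not tested.

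Set against the median of those rows in the same library, rbcL was below it in C032 at 2 hai and C129 at 36 hai. It was above the median row in the other libraries in which it was seen. Its level was 0.500 times the median row in C032 at 2 hai, 0.956 times in C129, 3.16 times in C033 and 1.92 times in C032 at 36 hai, and 3.37, 3.78 and 1.95 times at 72 hai. At 72 hai 15, 6 and 27 of the 114 rows stood above it in C129, C033 and C032. The petB row stayed below the median row wherever it was seen, at 0.470 times in dry C032 seeds and at 0.747, 0.686 and 0.513 times in C129, C033 and C032 at 72 hai.

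From 36 to 72 hai rbcL grew by 6.71 times in C129, 5.67 times in C033 and 3.37 times in C032. The median ratios of the other rows were 1.85, 5.09 and 3.12 in the same order. In C129 0 of 114 rows had a ratio above that of rbcL, in C033 34 of 113 and in C032 46 of 113. The ratio of rbcL thus exceeded that of every list row in C129 alone, with 1 library at each time and rbcL chosen for its change. The list mixes roles that rose unequally. In C129 the median of its photosystem II rows went from 24.2 to 105 TPM, and that of its ribosome rows from 141 to 181 TPM. For petB no ratio can be given, since it was listed at 0 in each accession at 36 hai. In C032 its level at 72 hai was 3.30 times that of the dry seed.

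The accessions were also compared at single times. At 36 hai rbcL was 3.68 times as high in C033 as in C129, while the median row of the list was at 1.07 times. At 72 hai the ratio was 3.11 for rbcL, 2.55 for petB and 2.61 for the median row. By coverage, before scaling to TPM, the ratios at 72 hai were 2.66 for rbcL and 2.18 for petB. Between C033 and C032 at 72 hai rbcL differed by 2.25 times and petB by 1.55 times, and the median row by 1.14 times. C032 stood above C129 at 72 hai by 1.39 times for rbcL and 1.65 times for petB, less than the 2.33 times of the median row. The median row hides differences between roles. The median of the photosystem II rows in C129, C033 and C032 was 24.2, 44.7 and 43.4 TPM at 36 hai and 105, 270 and 145 TPM at 72 hai. That of the ribosome rows was 141, 70.6 and 90.2 TPM at 36 hai and 181, 366 and 441 TPM at 72 hai.

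A difference between accessions over the whole time course was tested with limma on log2(TPM + 1), taking the 5 times of an accession as its replicates. In this fit 53233 coding genes had at least 1 TPM in at least 3 libraries, and both members passed this minimum only through the libraries in which they were high. A gene was called where its adjusted p was under 0.05 and its log2 difference beyond 1, which held for 6.99% of these genes for C129 against C032, 5.95% for C129 against C033 and 5.43% for C033 against C032. Neither member was called in any of the 3 pairs. The fit took each listed 0 as a measured 0, in 8 of 15 libraries for rbcL and 11 for petB. It therefore cannot decide whether the accessions differ in these rows, and its values are given as a description.

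The mean log2(TPM + 1) of rbcL was 3.98 ± 3.80 (SD over 5 time points) in C032, 3.27 ± 4.57 in C033 and 2.58 ± 3.66 in C129. Its difference between C129 and C032 was −1.40 (standard error 0.85, 95% interval −3.35 to 0.54, adjusted p = 0.225 from limma). Between C129 and C033 it was −0.70 (−2.64 to 1.25, adjusted p = 0.507 from limma) and between C033 and C032 −0.71 (−2.65 to 1.24, adjusted p = 0.684 from limma). Each of these intervals includes 0 and spans more than 3 log2 units. Without the library of C032 at 2 hai, left out after the data had been seen, the difference between C033 and C032 turned to 0.31 and that between C129 and C032 shrank to −0.39.

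For petB the mean was 2.21 ± 3.08 in C032, 1.40 ± 3.12 in C033 and 1.13 ± 2.53 in C129. Its difference between C129 and C032 was −1.08 (standard error 0.74, 95% interval −2.75 to 0.60, adjusted p = 0.276 from limma), between C129 and C033 −0.27 (−1.94 to 1.41, adjusted p = 0.774 from limma) and between C033 and C032 −0.81 (−2.48 to 0.86, adjusted p = 0.565 from limma). Leaving out the library of dry C032 seeds turned the last of these to 0.12 and brought the first to −0.14. The place of C032 over the time course thus rests, for each member, on its 1 early library.

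Among the chloroplast-matched rows, zeros were found in rows with several exons. Of the 78 chloroplast-matched rows annotated with a single exon, 0 were listed at 0 in any library. Of the 36 rows with 2 or more exons, 5 were, and both members also have more than 1 exon. The 5 rows match ccsA, for cytochrome c assembly (BnaC09g16400D, 12 libraries at 0), psbD/psbC, for the photosystem II proteins D2 and CP43 (BnaC09g27520D, 7 libraries), atpI, for a subunit of ATP synthase (BnaA01g34200D, 4 libraries), ndhA, for a subunit of the NDH complex (BnaC04g48350D, 1 library), and rpl2, for a ribosomal protein (BnaC09g16660D, 1 library). This comparison was chosen after the values had been seen and has no test. The part of the exon annotation in the members' zeros was not tested.

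The psbD/psbC row BnaC09g27520D was also the gene whose time course was most like that of rbcL among 53232 other genes, with a Pearson r of 0.99 on log2(TPM + 1) over the 15 libraries. The libraries share 5 time points and the zeros of both rows, and no p is given. It was listed at 0 in dry seeds of each accession, and at 2 hai it was above 0 in C032 alone, at 40.1 TPM. At 12 hai it was at 0.746 TPM in C129 and at 0 in the others. It then stood at 18.8, 44.8 and 40.2 TPM in C129, C033 and C032 at 36 hai, and at 101, 273 and 138 TPM at 72 hai.

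A second psbD/psbC row of the same exonic length of 1905 bases, BnaC05g32120D, was not at 0 in any library. In the 7 libraries in which BnaC09g27520D was at 0, BnaC05g32120D lay between 1.96 and 21.3 TPM. In the libraries in which rbcL was above 0 the rows were close to each other, with 39.4 against 40.1 TPM in C032 at 2 hai, 19.9 against 18.8 TPM in C129 at 36 hai and 274 against 273 TPM in C033 at 72 hai. A listed 0 in a row of this kind therefore stood beside reads assigned to a row of the same match and length. Whether this also holds for the members' zeros was not tested. Those zeros are not taken here as evidence that RNA of the members was absent.

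**Figure D2:**
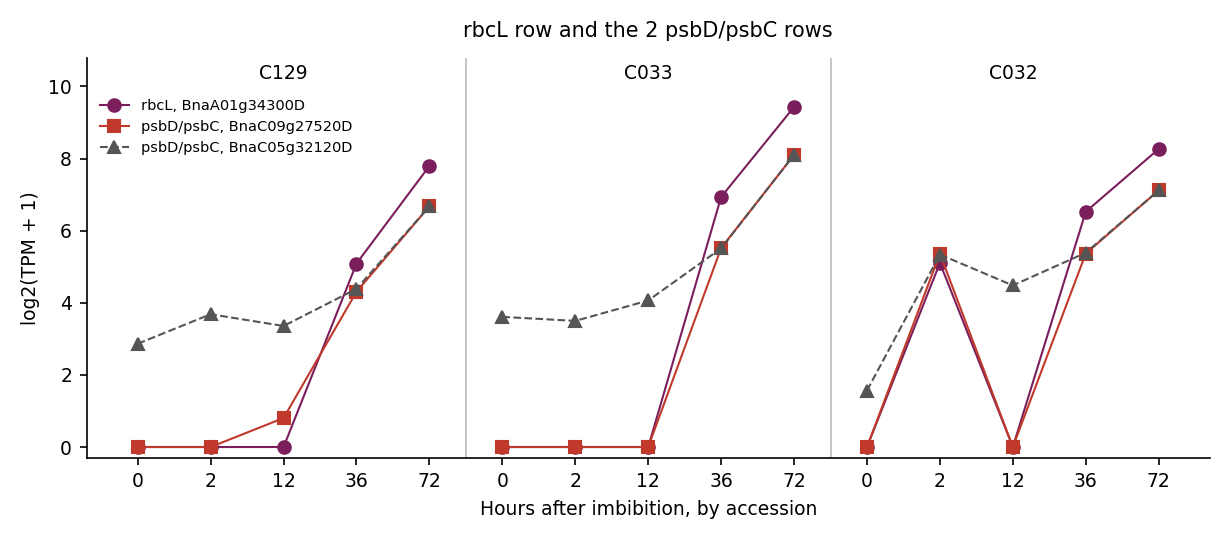
Points give log2(TPM + 1) in each of the 15 libraries, by accession and hours after imbibition, for the rbcL row and the 2 rows matched to psbD/psbC. The rbcL row and BnaC09g27520D are both high in C032 at 2 hai and in every accession at 36 and 72 hai, while BnaC05g32120D is above 0 throughout.

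After psbD/psbC, the rows most like rbcL were BnaA02g33780D (r = 0.95), BnaC01g12150D (0.94), BnaA05g15690D (0.94) and BnaA03g18070D (0.94). None has an Arabidopsis match at hand. BnaA03g18070D did not exceed 0.672 TPM up to 12 hai, was at 13.7 to 22.7 TPM at 36 hai and reached 60.2 to 70.1 TPM at 72 hai. The median r with rbcL was 0.66 over the 114 chloroplast-matched rows and 0.33 over all genes.

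The rows most like petB were BnaC03g21610D (r = 0.94), BnaC06g18520D (0.94), BnaC08g34440D (0.93), BnaA10g29120D (0.93) and BnaA06g15800D (0.93), again without a match at hand. All 5 were above 0 in dry C032 seeds, at 0.484 to 3.67 TPM. BnaC08g34440D was at 1.78 TPM there and at 2.03 TPM in C032 at 36 hai, where petB was listed at 0, and it reached 5.72 to 11.1 TPM at 72 hai. No chloroplast-matched row was among the nearest, the best at r = 0.83 with 1329 genes above it, and the median of the 114 rows was 0.71 against 0.19 over all genes. Between rbcL and petB themselves r was 0.58. On untransformed TPM 0 of the 5 nearest rows stayed among the nearest 5 for either member.

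On its scaffold the rbcL row lies beside other chloroplast-like rows. LK032116 carries 116 coding rows, 14 of them in the list of chloroplast-matched rows, of which 1 (atpI, BnaA01g34200D) was listed at 0 in any library. Of the 5 rows before rbcL, 4 match subunits of the NDH complex, the chloroplast NAD(P)H dehydrogenase-like complex, namely ndhH (BnaA01g34250D and BnaA01g34260D), ndhA (BnaA01g34270D) and ndhI (BnaA01g34280D). The nearest, BnaA01g34290D, lies 766 bases away on the minus strand and has no match at hand.

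All 5 were above 0 in each of the 15 libraries. In the 8 libraries in which rbcL was at 0 they lay between 3.46 and 52.4 TPM. BnaA01g34290D was at 46.9, 232 and 162 TPM in C129, C033 and C032 at 72 hai, below rbcL and in the same order of accessions. The zeros of rbcL up to 12 hai were thus not shared by the rows on its left.

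On the other side the next row, BnaA01g34310D, begins 4076 bases after rbcL and ran another way. It was highest at 12 hai, at 18.6, 13.9 and 12.9 TPM in C129, C033 and C032, and lay at 1.60 to 2.83 TPM at 72 hai. The following row, BnaA01g34320D, lies 93670 bases away and was at 0 in all libraries, as was BnaA01g34340D. BnaA01g34330D was highest at 36 hai in C129 (11.3 TPM), and BnaA01g34350D did not exceed 1.73 TPM.

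The petB row stands alone on its scaffold. LK031792 carries 198 coding rows and none of the 114 list rows, so the genes transcribed with petB in the chloroplast are not beside it in the list at hand. Its nearest rows on the left, BnaC07g05350D at 4392 bases and BnaC07g05340D at 5861 bases, were at 0 in every library up to 12 hai and reached at most 2.38 and 2.57 TPM at 72 hai. On the right BnaC07g05370D and BnaC07g05390D were at 0 in all libraries, and BnaC07g05380D was above 0 once, at 0.110 TPM in C129 at 72 hai.

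The rows farther out did not share the course of petB. BnaC07g05310D was above 0 throughout, up to 26.5 TPM in C129 at 36 hai. BnaC07g05320D was at 12.2 to 19.7 TPM up to 12 hai and at 5.01 to 7.94 TPM later. BnaC07g05330D, BnaC07g05400D and BnaC07g05410D did not exceed 8.35 TPM, a value that BnaC07g05410D reached in C129 at 12 hai.

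**Figure D3:**
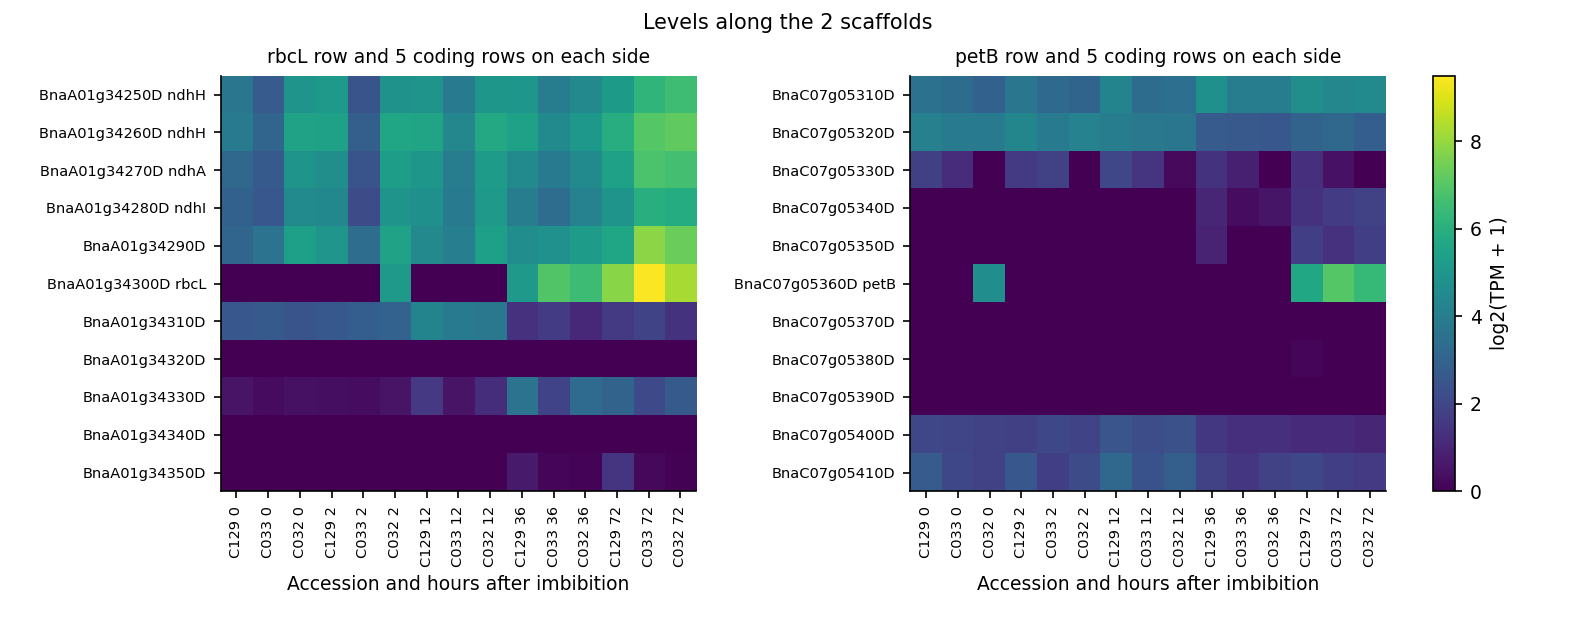
Colour gives log2(TPM + 1) in each library (columns, by hours after imbibition and accession) for each member and the 5 coding rows on each side of it in scaffold order (rows). The 5 rows above rbcL are above 0 in every library, and no row beside petB shares both its dry C032 value and its level at 72 hai.

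The partners of petB in its complex and its transcription unit were present in dry seeds and rose after 36 hai. Within accessions they also moved earlier. The median of the 11 cytochrome b6f rows went from 6.12 TPM in dry seeds to 21.7 TPM at 2 hai in C129. Over the same time it went from 9.35 to 6.36 TPM in C033 and from 27.8 to 39.2 TPM in C032. In C033 it then reached 29.3 TPM at 36 hai. In the same limma fit, with the 3 accessions as replicates of a time point, 10 of 11 rows for cytochrome b6f subunits rose from 36 to 72 hai, where 17.1% of all tested genes rose. These 11 rows match 3 loci, and rows of 1 locus may share reads, so they do not count as separate genes. Calls of chloroplast-matched rows over this step depended on C032 and on the model, as the counts over all 114 rows show. The petD row BnaA06g19400D, for subunit IV, was at 22.3, 19.0 and 49.1 TPM in dry C129, C033 and C032 seeds and at 93.9, 232 and 162 TPM at 72 hai, with a log2 change of 1.54 (standard error 0.39, adjusted p = 0.00636 from limma). The other petD row, BnaCnng20740D, rose by 1.44, and the 3 petL rows (BnaA03g34060D, BnaC01g21740D and BnaC04g29440D), for a small subunit, by 1.39 to 1.40.

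The petA gene encodes cytochrome f. Its rows BnaA10g13990D, BnaC01g21760D, BnaC04g29460D, BnaC07g11900D and BnaC09g27660D rose by 1.52 to 1.59, and BnaC08g14790D, which stayed at or below 2.40 TPM, changed by 0.73 and was not called. The rows for psbB (2.42 and 2.33) and psbH (2.06 and 2.07), photosystem II genes of the petB transcription unit, also rose over this step.

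Over all 114 chloroplast-matched rows, 81 rose and 0 fell from 36 to 72 hai, where 17.1% of all tested genes rose and 4.82% fell. The median log2 change was 1.65, against 0.21 over all genes. Without C032 only 12 rows were called as risen, without accession as a term 24, and with no minimum level 30. Up to 36 hai nearly nothing was called in the list. It held 0 rising and 0 falling rows from 0 to 2 hai (limma, 1 row at an unadjusted p under 0.05, background 0.00188% rising and 0% falling) and from 2 to 12 hai (limma, 0 rows at an unadjusted p under 0.05, background 11% and 2.08%). From 12 to 36 hai 1 row rose and 0 fell (background 18.8% and 14%), and the 1 row was BnaC09g27520D. Its call rests on values listed at or near 0 at 12 hai and was lost without C033. The row of the same match and length, BnaC05g32120D, was at 9.24, 15.7 and 21.3 TPM in C129, C033 and C032 at 12 hai and changed by 1.13 (adjusted p = 0.119 from limma, not called). The list was preselected for change in C129, so its counts do not show how often chloroplast-like rows change.

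By role, 25 of 26 rows of the NDH complex rose from 36 to 72 hai, 17 of 25 of photosystem I, 7 of 8 of photosystem II, 2 of 3 of ATP synthase, 18 of 26 of the ribosome, 2 of 8 of the RNA polymerase and 0 of 7 others. In the same order the rows match 7, 6, 4, 3, 10, 4 and 3 loci, so many are copies of 1 gene. Among the most abundant rows of these roles, the log2 rise was 2.29 for atpH (BnaA01g34190D), an ATP synthase subunit, 1.89 for psbE (BnaC01g21750D), a cytochrome b559 subunit, and 1.72 for psaA (BnaC04g15570D), a reaction centre protein of photosystem I. The same was seen for ndhH (BnaC07g21940D, 1.64) and for rpoA (BnaC02g41140D, 1.59), a subunit of the plastid RNA polymerase. The protease subunit clpP (BnaA06g19450D) changed by 0.69 and was not called (adjusted p = 0.321 from limma). The atpH row lies on the rbcL scaffold and, at 345, 1097 and 765 TPM in C129, C033 and C032 at 72 hai, was above rbcL in each accession.

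**Figure D4:**
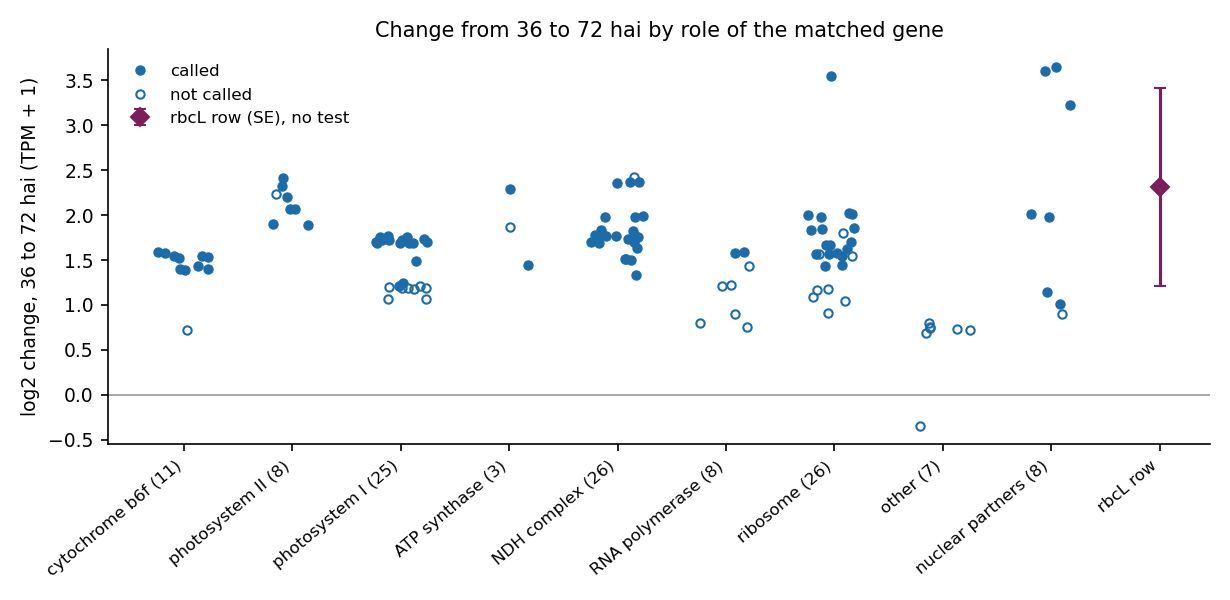
Points give the log2 change of TPM + 1 from 36 to 72 hai over 3 accessions (limma) for each chloroplast-matched row by role, with the number of rows, and for the 8 tested nuclear partner rows. Filled points were called, and the diamond with its standard error is the rbcL row, given without a test. Most rows lie above 1, and 81 of 114 chloroplast-matched rows are filled.

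The nuclear rows for proteins that work with rbcL and petB were at most at 2.26 TPM up to 12 hai, unlike the chloroplast-matched rows. Of 10 such rows 8 passed the minimum. From 0 to 2 and from 2 to 12 hai 0 rose and 0 fell (limma, 0 and 1 at an unadjusted p under 0.05). From 12 to 36 hai 2 rose, a share near the 18.8% of all tested genes that rose. From 36 to 72 hai 7 rose, against 17.1% of all tested genes, and 0 fell at either step. Like the chloroplast-matched list, these rows were preselected for change in C129. Some of the genes have 2 rows, so the rows do not count as separate genes. The counts therefore do not show how often such genes change.

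RAF2, a Rubisco assembly factor, has the 2 rows that rose at both steps. Row BnaA03g13290D was at 0.687, 1.61 and 0.258 TPM in C129, C033 and C032 at 12 hai, at 11.5, 5.69 and 8.11 TPM at 36 hai, and at 37.9, 33.9 and 36.1 TPM at 72 hai. Row BnaC03g16100D ran alike, from 12.1, 5.11 and 5.74 TPM at 36 hai to 30.5, 27.4 and 35.7 TPM at 72 hai. From 12 to 36 hai these rows rose by a log2 of 2.37 and 2.14, and from 36 to 72 hai by 2.02 and 1.98. At 36 and 72 hai both rows were below rbcL in TPM in each accession.

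Both rows of RBCS1A, a gene for the Rubisco small subunit (BnaC02g17150D and BnaC02g17140D), did not exceed 1.28 TPM in any library and did not reach the minimum. Other RBCS rows have no match at hand and were not analysed here. Of the CCB2 rows, for an assembly factor of cytochrome b6, BnaC03g15640D rose by 1.01 from 36 to 72 hai (adjusted p = 0.00161 from limma) to 4.37, 2.41 and 3.41 TPM in C129, C033 and C032. The other, BnaA03g12790D, changed by 0.90 and so missed the minimum change (adjusted p = 0.00153 from limma). Ferredoxin reductase FNR1 (BnaA09g08030D) rose by 3.61, photosystem I subunit PSAN (BnaC03g50210D) by 3.65, and the light-harvesting protein LHCB3 by 3.22 (BnaC09g30700D) and 1.15 (BnaC02g44590D) over the same step.

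The tissue was checked by 6 rows for napin, oleosin and caleosin, proteins of the seed store. At 0 hai the oleosin row BnaC09g27370D, which held the highest value of the 6, was at 36.3, 38.2 and 56.5 TPM in C129, C033 and C032. At 72 hai no row of the 6 exceeded 0.393 TPM. Of the 6 rows, 5 were higher at 0 than at 72 hai in each accession, and the other was not. Of these rows 2 fell from 2 to 12 hai, 4 from 12 to 36 hai and 1 from 36 to 72 hai, where 2.08%, 14% and 4.82% of all tested genes fell. Coding genes held 19.4 to 41.7 M read equivalents per library, with a median of 27.5 M, and the 2 early libraries with a member above 0, dry C032 seeds and C032 at 2 hai, held 19.4 and 26.9 M.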

How the data were processed

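Per the study's methods, TruSeq libraries made from extracted total RNA were read as paired ends of 100 bases on a HiSeq2000. Adapters were removed, and HISAT and StringTie served for mapping, to AST_PRJEB5043_v1, and for quantification (versions not given in the sources used here). The deposited TPM values were computed by the authors over 101040 coding and 4236 non-coding rows together. Non-coding rows held 5.82% to 26.6% of the covered bases per library. The deposited coverage is the mean read depth per base as StringTie wrote it. Coding rows alone were used here.

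Read equivalents were computed as coverage times exonic length over 100. Genes that reached 1 TPM in 3 or more libraries were tested on log2(TPM + 1) by limma 3.58.1 (R 4.3.3), using its trend and robust options. The model held time point and accession and left 8 degrees of freedom. Changes on this scale understate those of low genes. p-values were adjusted by Benjamini-Hochberg over all 53233 genes, and a call needed an adjusted p below 0.05 together with a log2 change beyond 1. On simulated data for the step from 12 to 36 hai over 53233 genes, 78% of 100 genes changed by 1.5 and 100% of 100 changed by 2 were recovered, with 10 false calls. The simulation gave every gene the same independent noise and left most genes unchanged. In the real step the standard error was 1.10 for the rbcL row and 1.17 for BnaC09g27520D. The recovery rates need not hold for rows of such spread. Python 3.11.15 with numpy 2.4.6, pandas 2.3.3 and matplotlib 3.10.9 served for the rest.

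The members and lists were chosen with earlier results of these data known. Genes were named by rule: the members, the 5 rows most correlated with each, 5 scaffold neighbours on each side, all cytochrome b6f rows, the row of highest mean TPM of each other role, and all 10 nuclear partners. One row that this rule names is not reported here. The psbB, psbH and RAF2 comparisons, the second psbD/psbC row and the rows listed at 0 were singled out after their values were seen. Arabidopsis matches came from the part of the study's gene table at hand, and symbols were recalled from the loci. Of the files' identifiers 0 occur in the RefSeq gene table given, so no sequence or further annotation is shown. Alternatives were a pseudocount of 0.1, a minimum of 5 TPM, no minimum, other scalings, a model without the second term, and leaving out each accession or time point.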

Additional observations from a re-analysis of the deposited data

How the results depend on the processing

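The labels carry no replicate numbers. Time steps were compared within accessions, since accession was a term of the model. Neither member was called in any pair of accessions under any alternative run. Leaving out 1 time point moved the rbcL differences between −1.75 and −0.48 for C129 against C032, between −0.87 and −0.41 for C129 against C033 (adjusted p down to 0.0478 from limma, with the change not beyond 1) and between −1.17 and 0.39 for C033 against C032, where the highest value is without 2 hai. For petB they lay between −1.34 and −0.18, at −0.33 throughout, and between −1.01 and 0.16, where the highest is without 0 hai. Without 72 hai petB no longer reached the minimum. Of the chloroplast-matched rows 30 rose from 36 to 72 hai with no minimum, 24 without the second term and 12 to 64 with 1 accession left out, the lowest without C032. From 12 to 36 hai 2 rose with a pseudocount of 0.1, 2 without the library of dry C032 seeds, which was left out after the data had been seen, and 0 to 3 with 1 accession left out. Of the nuclear partners 4 rose from 12 to 36 hai with a pseudocount of 0.1 and 2 to 3 with 1 accession left out, and from 36 to 72 hai 4 to 6. By coverage the C033 to C129 ratio at 72 hai was 2.66 for rbcL and 2.18 for petB. On untransformed TPM 0 of the 5 nearest rows were shared for rbcL and 0 for petB. The median log2 change of all genes was 0.25 from 2 to 12 hai and 0.21 from 36 to 72 hai with deposited TPM, and 0.00 and 0.06 with median-of-ratios scaling. With 1 library per condition, differences between accessions at single times and the early values in C032 have no replicate. The causes of these shifts were not tested.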
